A study of Mus musculus with 10 samples.

Results

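The alpha-defensins and 4 other secreted effectors of Paneth cells were followed in RNA from the terminal ileum of obese mice after bariatric surgery. The group was taken as every gene whose symbol in the files begins with Defa or Defcr, together with Lyz1, Mmp7, Ang4 and Itln1, where at least 1 library held a count. It comprised 28 genes, 24 defensin symbols and the 4 effectors, of 36401 genes listed and 26086 with a count. Another 5 symbols of the family (Defa-ps11 to Defa-ps15) were listed at 0 in every library, where 3 counts would correspond to 0.0881 to 0.195 counts in 1e6 reads.

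Male C57Bl6 mice had been given a diet with 60% of energy from fat for 6 weeks and were operated on at 8 weeks of age. One group of 5 had a vertical sleeve gastrectomy (VSG), which removes much of the stomach along its greater curve, and then ate freely. The other group of 5 had sham surgery and was pair-fed to the first (SPF), so that the controls shared the diet, the liquid feeding around surgery and, by pair-feeding, the amount eaten. About 8 weeks later all mice were fasted overnight, given 0.5 mL of the liquid diet Osmolite by gavage and killed 1 hour afterwards. The piece of gut was bulk tissue, and each library was 1 sample.

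Paneth cells sit at the base of the crypts of the small intestine, beside the stem cells, and release antimicrobial proteins into the crypt lumen. Alpha-defensins, called cryptdins in mice, are small cationic peptides with paired cysteines that disrupt bacterial membranes. They are made as inactive precursors, which in mice the protease matrilysin, the product of Mmp7, cuts to the active peptide. Lyz1 encodes the Paneth cell lysozyme, Ang4 an angiogenin-type ribonuclease with antimicrobial activity, and Itln1 the lectin intelectin, which binds microbial sugars and is also made by goblet cells. Paneth cells are most frequent in the ileum, and the mouse defensin genes differ in how strongly they are used along the gut.

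Many of the defensin genes are near copies, and the ends of 6 coding sequences are shown because the similarity decides how far single genes can be read. The last 102 coding bases, stop codon included, encode most of the mature peptide. They were taken from GENCODE M21 transcripts on GRCm38, all on the plus strand, at chr8:21510042-21510143 (Defa20), chr8:21163054-21163155 (Defa22), chr8:21026322-21026423 (Defa21), chr8:21735276-21735377 (Defa24), chr8:21288182-21288283 (Defa3) and chr8:21055820-21055921 (Defa23). Capitals mark the in-frame cysteine codons.
Defa20: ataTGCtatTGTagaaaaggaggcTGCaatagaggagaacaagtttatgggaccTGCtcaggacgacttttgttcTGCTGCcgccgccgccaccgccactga
Defa22: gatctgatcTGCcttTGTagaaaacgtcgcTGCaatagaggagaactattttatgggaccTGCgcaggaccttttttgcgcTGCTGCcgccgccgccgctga
Defa21: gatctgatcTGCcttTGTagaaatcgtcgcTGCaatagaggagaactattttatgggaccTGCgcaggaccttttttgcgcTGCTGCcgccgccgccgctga
Defa24: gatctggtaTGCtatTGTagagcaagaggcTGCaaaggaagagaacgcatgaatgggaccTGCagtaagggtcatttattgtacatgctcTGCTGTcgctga
Defa3: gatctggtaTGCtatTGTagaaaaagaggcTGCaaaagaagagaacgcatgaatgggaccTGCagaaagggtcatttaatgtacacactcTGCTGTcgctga
Defa23: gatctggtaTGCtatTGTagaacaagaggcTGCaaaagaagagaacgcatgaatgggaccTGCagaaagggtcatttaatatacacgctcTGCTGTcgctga
Each of these ends held 6 cysteine codons. Defa21 and Defa22 differed at 1 of the 102 positions, while Defa24 and Defa20 differed at 72 when set base against base without gaps. With gaps allowed, the whole coding sequences of Defa24 and Defa20 were 82.4% identical. The coding sequences of Defa3 and Defa17 were identical over their whole length, as were those of Defa23 and Defa-rs7.

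The reads were 50 bases long. When each transcript was cut into every possible 50-base window, 100% of the windows of Defa20 and of Defa-rs7 were also found in another gene. The share was 99.7% for Defa5, 94.8% for Defa23, 92.2% for Defa3, 92.0% for Defa17, 74.9% for Defa22 and 72.9% for Defa21, and 28.1% for Defa24. The effectors were better separated, with 16.1% for Lyz1, all of it shared with its near copy Lyz2, 7.4% for Mmp7, 4.7% for Ang4 and 1.0% for Itln1. Of 218 deposited defensin values above 0, 3.21% were exactly whole numbers, against 33.3% of 211940 such values over all genes, so most defensin values held fractions of reads. Single defensin genes are therefore uncertain, and the sum over the family is given beside them.

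**Figure D1:**
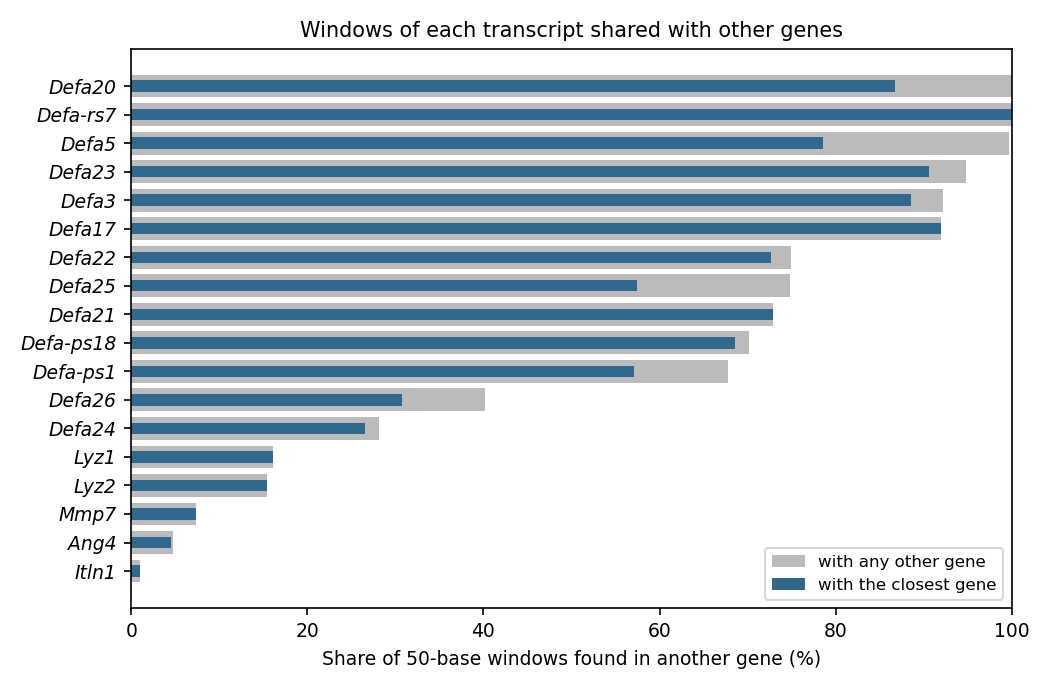
Share of the 50-base windows of each transcript (horizontal axis, %) that also occur in any other gene (grey bars) or in the closest gene (blue bars), for tested genes with a transcript in GENCODE M21 and for Lyz2. Most defensins with numbers share over 70% of their windows, Defa24 shares 28.1%, and the 4 effectors share at most 16.1%.

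Some pairs of close copies, which share most or all of their windows, had nearly the same level in every library. The ratio of Defa17 to Defa3 lay between 0.971 and 1.07 in the 10 libraries, that of Defa21 to Defa22 between 0.977 and 1.02, and that of Defa23 to Defa-rs7 between 1.11 and 1.18. A further 12 alpha-defensins carried other symbols in the files and fell outside the rule, among them Gm15308 (Defa32 in current naming), whose coding sequence was identical to that of Defa20, and Gm15284 (Defa30), 98.6% identical to Defa24. Their sum had a mean of 5860 CPM in VSG and 10386 CPM in SPF.

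Libraries held 15364651 to 34058181 estimated reads, and levels are given as CPM, counts divided by the library's total and its TMM factor and brought to 1 common total of 1e6. Any 2 libraries correlated at 0.928 to 0.991 in log2 CPM. The labels call every sample terminal ileum, but 3 libraries carried another signature. Gata4, which is expressed in duodenum and jejunum and silent in the distal ileum, stood at 121 CPM in VSG 2, 109 CPM in SPF 2 and 183 CPM in SPF 4, and at 1.72 to 6.28 CPM in the other 7. Fabp6, the ileal bile acid binding protein, was at 39.0 to 62.1 CPM in those 3 libraries and at 2558 to 6112 CPM in the 7. Fold changes are therefore given over the 10 libraries and over the 7 with Gata4 below 20 CPM, 4 of them VSG (1, 3, 4 and 5) and 3 SPF (1, 3 and 5). Nothing in the labels places the samples along the ileum, and the split is one made from the data.

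The summed level of the defensin family was 7926 CPM in VSG 1, 16648 in VSG 2, 15410.5 in VSG 3, 6675 in VSG 4 and 4200 in VSG 5. In the sham libraries it was 19185 CPM in SPF 1, 11645 in SPF 2, 36781 in SPF 3, 2264 in SPF 4 and 22623 in SPF 5. Over the 10 libraries the groups overlapped, since the lowest value of all was a sham library and VSG 2 and VSG 3 lay above SPF 2. The means were 10172 ± 5530 CPM (SD, n = 5) in VSG and 18500 ± 12867 CPM (SD, n = 5) in SPF, a log2 ratio of -0.86.

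Among the 7 libraries with low Gata4, each VSG library lay below each sham library. There the means were 8553 ± 4827 CPM (SD, n = 4) in VSG and 26197 ± 9326 CPM (SD, n = 3) in SPF, so that the sham mean was 3.06 times the VSG mean (log2 ratio -1.61). VSG 3 was the nearest to the sham group, at 15410.5 against 19185 CPM in SPF 1. No test is given for the sum. With the 12 alpha-defensins under other symbols added, the log2 ratio was -0.85 in the 10 libraries and -1.59 in the 7. In bulk tissue, fewer Paneth cells and less defensin RNA per Paneth cell cannot be told apart.

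**Figure D2:**
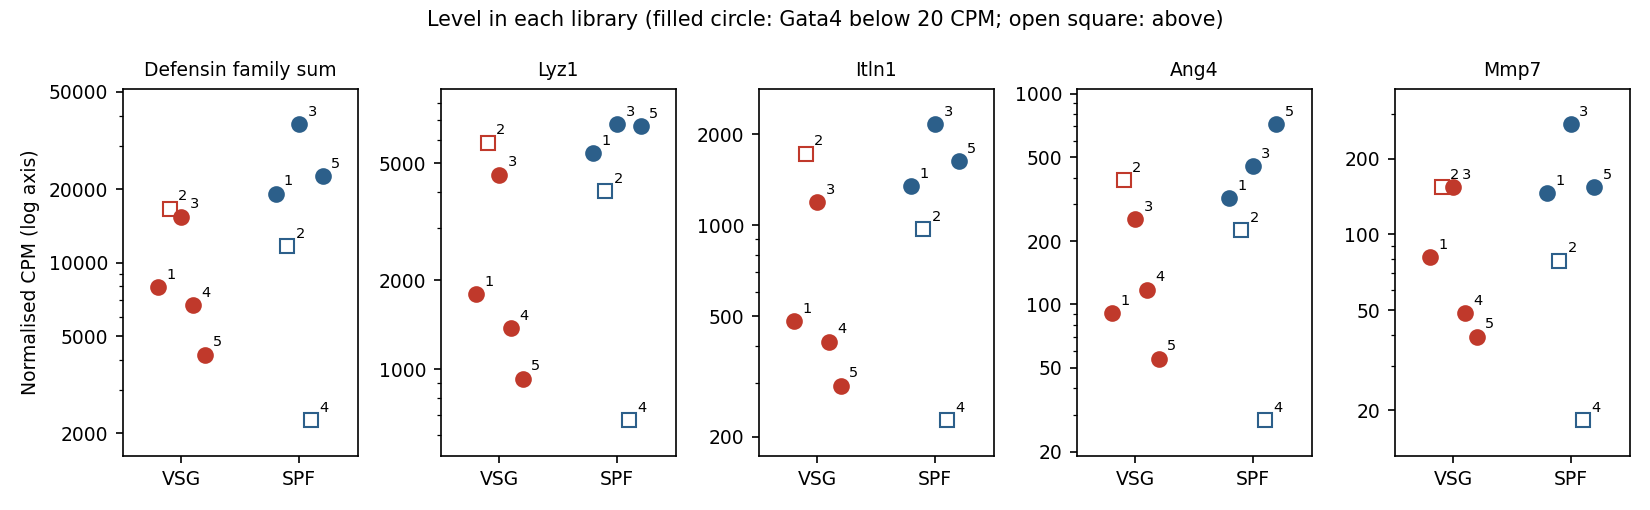
Normalised CPM on a log axis for the defensin family sum and the 4 effectors in each library, with VSG in red and SPF in blue; the number beside each point is the replicate. Filled circles are the 7 libraries with Gata4 below 20 CPM and open squares the other 3. Among the filled circles all VSG points lie below all SPF points in each panel but Mmp7, and SPF 4 is the lowest point in every panel.

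Over the 10 libraries no gene passed edgeR's quasi-likelihood test at an adjusted p of 0.05 (0 of 15678 genes tested, percent called 0), and 595 had an unadjusted p under 0.05. DESeq2 called 11 genes, none of them a defensin or effector. Of the 28 members, 18 had enough counts to be tested. All 18 fitted log2 fold changes were below 0, where 58.1% of all genes tested were; with limma-voom, which also called 0 genes, the 3 genes Defa20, Defa21 and Defa22 were slightly above 0. The median of the 18 was -0.71, with a range from -1.09 to -0.49, against a median of -0.05 over all genes. Unadjusted p-values ran from 0.162 to 0.470 (edgeR, adjusted p = 0.977 for each), so that 0 of 18 were under 0.05 where 1.91% of all genes were so and lower in VSG. No member had all VSG libraries below all sham libraries (0.3% of all genes did). A difference was thus not detectable against the spread between the 10 libraries.

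Over the 7 libraries with low Gata4, edgeR again called no gene (0 of 15911, percent called 0), with 1107 genes at an unadjusted p under 0.05. The 18 members tested in the 10 libraries were tested here too, and 18 of 18 were below 0, beside 56.8% of all genes. Their median log2 fold change was -1.57 (range -1.94 to -1.01), beside -0.05 over all genes. An unadjusted p under 0.05 and a lower level in VSG held for 17 of the 18 and for 3.26% of all genes. In 15 of the 18, each VSG library lay below each sham library, which 3.79% of all genes showed. The adjusted p-values (edgeR) were 0.633 to 0.765, so none of the members passed. A further member, Defa-ps4, passed the filter in the 7 through its sham counts and is left out of these counts. The members vary together and share reads, so these counts do not stand for 18 separate results.

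The call depended on the tool in these 7 libraries, since limma-voom called 2 genes, neither of them a member. DESeq2 called 83 of the 15911 genes tested. Among them were 11 of the 19 members, Defa-ps4 counted in the 19, at DESeq2 adjusted p-values of 0.0158 to 0.0454. The members vary together and many share reads, so these are not 11 separate results. The 11 included Defa3, Defa17, Defa20, Defa21, Defa22, Defa23, Defa24 and Ang4. Lyz1, Itln1 and Mmp7 were not called by either tool.

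**Figure D3:**
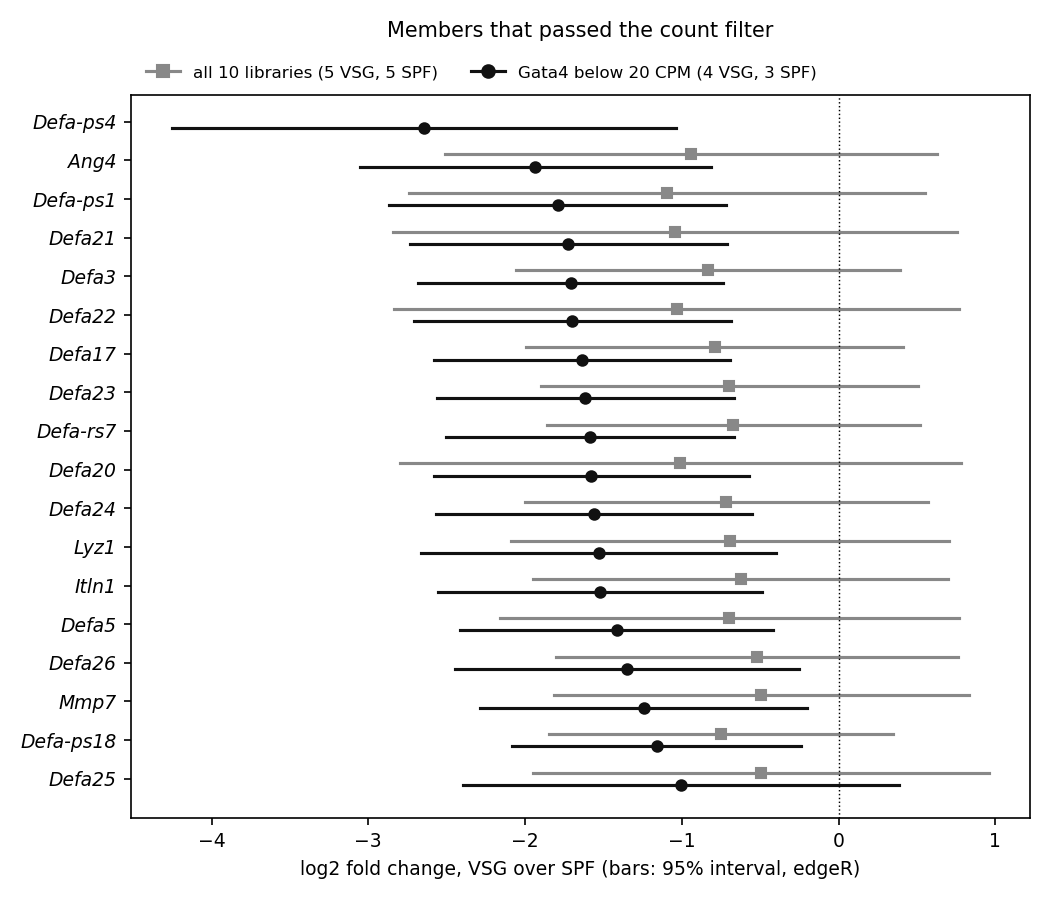
Fitted log2 fold change of VSG over SPF (horizontal axis) for members that passed the count filter, with 95% intervals from edgeR, over all 10 libraries (grey squares) and over the 7 with Gata4 below 20 CPM (black circles). In the 10 libraries every interval shown spans 0; in the 7 every interval shown but that of Defa25 lies below 0 before adjustment.

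Among the single defensins, Defa20 had the highest counts per kilobase of transcript in the 7 libraries, at 5201 CPM per kb in VSG and 15528 CPM per kb in SPF, followed by Defa24 at 4893 and 14466 CPM per kb. Defa20 stood at 2010 CPM in VSG 1, 2077 in VSG 2, 4107 in VSG 3, 1640 in VSG 4 and 1083 in VSG 5. The sham libraries had 5063, 2134, 8778, 76.4 and 5958 CPM in the order of their numbers. SPF 4 lay far below every other library. In the 7 libraries the groups did not overlap, with a log2 fold change of -1.58 ± 0.44 (SE; edgeR, adjusted p = 0.633). Over the 10 it was -1.01 ± 0.81 (SE; edgeR, adjusted p = 0.977), with overlap.

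Of the abundant defensins, Defa24 had the smallest share of 50-base windows found in another gene. Its coding sequence was still 95.7% identical to that of Defa3. Defa24 was at 1947, 5365, 3608, 1613 and 1034 CPM in VSG 1 to 5. The sham values were 4200, 3221, 8976, 871 and 5007 CPM in SPF 1 to 5. Its order of libraries was much that of Defa20, except that VSG 2 was here the highest VSG library. In the 7 libraries the log2 fold change was -1.56 ± 0.44 (SE; edgeR, adjusted p = 0.633), close to the log2 ratio of the family sum. With all 10 libraries it was -0.72 ± 0.58 (SE; edgeR, adjusted p = 0.977).

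Defa22 ranged from 479 CPM (VSG 5) to 1880 CPM (VSG 3) in the VSG libraries, with 878, 1333 and 803 CPM in VSG 1, 2 and 4. In SPF 1 to 5 it was at 2432, 1123, 4491, 35.4 and 2919 CPM. Defa21 followed it closely, with 858, 1357, 1842, 784 and 470 CPM in VSG 1 to 5 and 2433, 1128, 4446, 35.6 and 2926 CPM in SPF 1 to 5. Both separated the groups in the 7 libraries, with log2 fold changes of -1.70 for Defa22 and -1.72 for Defa21 (edgeR, adjusted p = 0.633 for each). Both overlapped over the 10 libraries, at -1.03 and -1.05 (edgeR, adjusted p = 0.977 for each).

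Defa17 stood at 510, 1432, 908, 430 and 266 CPM in VSG 1 to 5 and at 1188, 907, 2370, 294 and 1372 CPM in SPF 1 to 5. Defa3, with the same coding sequence, was at 477, 1439, 894, 405 and 248.5 CPM in VSG and 1206, 906, 2385, 303 and 1376 CPM in SPF, in the same order. Since these are in practice 1 measurement, the log2 fold changes of -1.63 for Defa17 and -1.71 for Defa3 in the 7 libraries (edgeR, adjusted p = 0.633 for each) are not 2 results. They were -0.79 and -0.83 over the 10 libraries (edgeR, adjusted p = 0.977 for each). In the 7 libraries Defa3 had the lowest unadjusted p of the members (edgeR, 0.00341). It was 70th of the genes tested there when ordered by p.

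Defa23 was at 394, 1285, 663, 317 and 187 CPM in VSG 1 to 5 and 883, 748, 1723, 274 and 986 CPM in SPF 1 to 5. Defa-rs7, identical to it in coding sequence, was at 335, 1111, 566, 284 and 168 CPM in VSG and 753, 644, 1461, 233 and 832 CPM in SPF. Defa-ps1, annotated as a pseudogene by its symbol, was at 19.2, 32.9, 46.6, 14.2 and 10.3 CPM in VSG and 64.7, 27.1, 102.7, 1.66 and 66.2 CPM in SPF. In the 7 libraries these 3 had log2 fold changes of -1.61, -1.58 and -1.79, and in each the VSG libraries lay below the sham libraries. The values over the 10 libraries were -0.70, -0.67 and -1.09, all with overlap.

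Of the other tested members, Defa5 had a mean of 238 CPM in VSG and 637 CPM in SPF over the 7 libraries, and its groups were only just apart, at 446.7 CPM in VSG 3 and 447.6 CPM in SPF 1. Defa26 was lower in level, from 15.6 CPM (VSG 5) to 153 CPM (SPF 3). Defa25 overlapped, with VSG 4 at 3.98 CPM above SPF 1 at 2.89 CPM, as did Defa-ps18 at 0.323 to 1.55 CPM over the 7 libraries.

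Defa-ps4, tested only in the 7 libraries, had the fold change furthest from 0, -2.65, at levels of 0.0641 to 0.277 CPM in VSG and 0.336 to 1.54 CPM in SPF, and it passed the filter through its sham counts. Of the 28 members, 10 could not be tested in the 10 libraries and 9 not in the 7, all of them pseudogene symbols. One of these, Defa-ps7, had 8.16 CPM in VSG 3 and at most 0.203 CPM elsewhere; it is named because of that value. The others not tested in the 7 had means of at most 0.155 CPM there.

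The make-up of the family sum differed along with the Gata4 signature. Defa20, Defa21 and Defa22 together made up 47.3% to 52.2% of the family count in the 7 libraries with low Gata4. Their share was 28.6% in VSG 2 (exact 95% interval 28.5% to 28.8%), 37.7% in SPF 2 (37.5% to 37.8%) and 6.51% in SPF 4 (6.27% to 6.76%). Intervals and limits cover counting error only, with counts rounded. Defa24 took 21.9% to 24.6% in the 7 and 27.7% to 38.5% in the 3. In SPF 4, Defa20 was at 0.0878 of the level of Defa24, where the ratio was 0.978 to 1.21 in the 7 libraries.

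Within the 7, the share of Defa20, Defa21 and Defa22 overlapped between the surgeries, at 47.3% to 50.8% in VSG and 48.2% to 52.2% in SPF. The 16 least abundant symbols together did not overlap, at 5.97% to 6.51% of the family in VSG and 5.37% to 5.85% in SPF. No test of the shares between the libraries with high and low Gata4 is given, since these are not groups of the study.

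**Figure D4:**
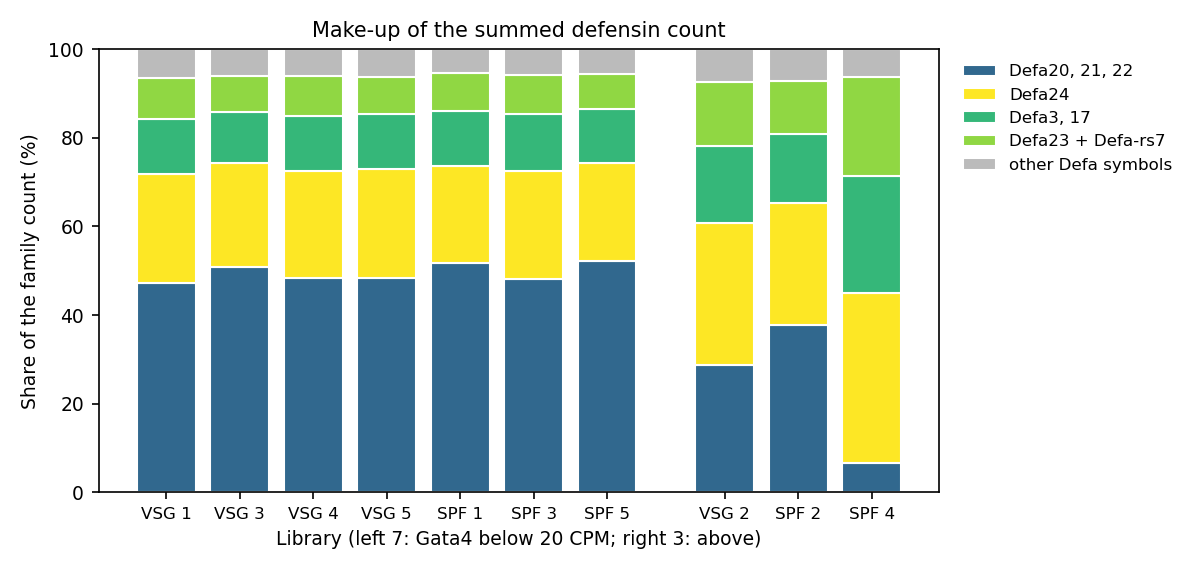
Share of the summed defensin count (vertical axis, %) taken by groups of near copies in each library, the 7 with Gata4 below 20 CPM on the left and the other 3 on the right. The share of Defa20, 21 and 22 is 47.3% to 52.2% on the left and 6.51% to 37.7% on the right, while the 16 other symbols take 5.37% to 6.51% on the left.

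The sequence before the start is shown for Defa20, Defa22, Defa23 and Lyz1, because the members moved together between libraries. RefSeq promoters on GRCm38.p6 matched 9 of the 28 members, 5 of them defensins. None was matched for Defa24, Defa3 or Defa17. The 150 bases before the start are given for the plus strand genes at chr8:21509108-21509257 (Defa20), chr8:21162127-21162276 (Defa22) and chr8:21054890-21055039 (Defa23) and for Lyz1, on the minus strand, at chr10:117292869-117293018. Capitals mark CTTTGAT on either strand (ATCAAAG as printed), a form of the motif bound by the TCF factors of the Wnt pathway, which is active in crypts.
Defa20: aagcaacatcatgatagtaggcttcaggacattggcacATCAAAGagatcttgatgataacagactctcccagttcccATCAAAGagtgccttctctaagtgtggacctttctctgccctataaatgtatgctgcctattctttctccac
Defa22: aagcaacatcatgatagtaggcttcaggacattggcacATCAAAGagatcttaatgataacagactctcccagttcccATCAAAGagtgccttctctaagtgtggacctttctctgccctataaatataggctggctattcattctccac
Defa23: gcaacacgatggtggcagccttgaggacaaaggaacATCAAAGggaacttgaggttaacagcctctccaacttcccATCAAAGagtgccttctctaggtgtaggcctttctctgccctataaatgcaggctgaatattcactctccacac
Lyz1: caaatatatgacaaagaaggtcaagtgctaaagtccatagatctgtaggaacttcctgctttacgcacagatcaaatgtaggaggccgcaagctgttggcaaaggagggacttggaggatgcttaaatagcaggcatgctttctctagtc
The motif stood at 2 places in each of the 5 defensin promoters, the 3 shown and those of Defa21 and Defa-rs7, which were 100% identical to Defa22 and Defa23 over this stretch. Defa20 and Defa23 were 80.3% identical there, so the 5 are not separate observations. Of 32851 RefSeq promoters, 3.2% held CTTTGAT on either strand within 250 bases before the start. The related forms CTTTGTT (5.0% of promoters) and CTTTGAA (4.5%) were searched on both strands too and were found in none of the 9; none of the 3 forms is part of another. No CTTTGAT was found in these letters for Lyz1, Itln1 or Ang4, while 1 of the 2 RefSeq starts of Mmp7 had it within 250 bases. These matches describe the letters and are no measure of binding.

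Among the effectors, Lyz1 had the most counts, with 1792, 5866, 4567, 1379 and 929 CPM in VSG 1 to 5. In SPF 1 to 5 it was at 5399, 4014, 6755, 672 and 6662 CPM. The sham libraries with low Gata4 lay close together, at 5399 to 6755 CPM, and VSG 3 came nearest to them. Over the 7 libraries the log2 fold change was -1.53 ± 0.50 (SE; edgeR, adjusted p = 0.633), and over the 10 it was -0.69 ± 0.64 (SE; edgeR, adjusted p = 0.977).

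Lyz2, the lysozyme of macrophages and a near copy of Lyz1 (95.1% of coding bases identical), was at 8.17% to 13.99% of the Lyz1 level in every library. It was at 166, 595, 373, 193 and 124 CPM in VSG 1 to 5 and 535, 369, 708, 87.3 and 605 CPM in SPF 1 to 5, an order much like that of Lyz1. Its log2 fold change in the 7 libraries was -1.52 ± 0.35 (SE; edgeR, adjusted p = 0.633). Csf1r, C1qa, C1qb and C1qc, other macrophage genes, had values of -0.39, -0.44, -0.42 and -0.43. The rest of the macrophage list tested was Cd68 at -0.44, Adgre1 at -0.42, Itgam at -0.19 and Cd14, above 0, at 0.49. How many of the reads assigned to Lyz2 came from Lyz1 was not tested.

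Itln1 was at 482, 1725, 1195, 412 and 295 CPM in VSG 1 to 5 and at 1350, 972, 2155, 227 and 1633 CPM in SPF 1 to 5. Its level was 24.2 to 33.7 CPM per 100 CPM of Lyz1 over the 10 libraries. In the 7 its log2 fold change was -1.52 ± 0.45 (SE; edgeR, adjusted p = 0.633), and the groups did not overlap. Over the 10 it was -0.62 ± 0.60 (SE; edgeR, adjusted p = 0.977).

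Ang4 was at 91.1, 389, 254, 118 and 55.4 CPM in VSG 1 to 5 and at 319, 226, 452, 28.2 and 715 CPM in SPF 1 to 5. Its high value in SPF 5 stood out against the family, at 3.16 CPM per 100 CPM of defensin where the other 9 libraries had 1.15 to 2.33. The log2 fold change in the 7 libraries was -1.94 ± 0.49 (SE; edgeR, adjusted p = 0.633), the furthest from 0 among the effectors. In all 10 libraries it was -0.94 ± 0.71 (SE; edgeR, adjusted p = 0.977).

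Mmp7, whose product activates the defensin precursors, was the scarcest of the 4, at 81.0, 154, 154, 48.6 and 39.2 CPM in VSG 1 to 5 and 145, 78.7, 273, 18.3 and 154 CPM in SPF 1 to 5. In the 7 libraries VSG 3 at 153.6 CPM lay above SPF 1 at 145.5 CPM, so the groups overlapped. The log2 fold change was -1.24 ± 0.46 (SE; edgeR, adjusted p = 0.685), and over the 10 libraries -0.49 ± 0.60 (SE; edgeR, adjusted p = 0.977). Per 100 CPM of defensin there were, in the 7 libraries, 0.727 to 1.02 CPM of Mmp7 in VSG and 0.682 to 0.758 in SPF, which also overlapped.

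Exact two-sided permutation tests of log2 CPM were run for 6 genes, Defa20, Defa24, Lyz1, Mmp7, Ang4 and Itln1. With 4 against 3 libraries only 35 assignments to the groups are possible. Defa20, Defa24, Lyz1, Ang4 and Itln1 each gave an exact p of 0.0571 (0.0685 adjusted over the 6 genes), while Mmp7 gave 0.0857. With all 10 libraries the exact p-values were 0.405 to 0.952. None of the 6 genes was under 0.05 by this test in the 7 libraries.

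The spread within the groups was wide. Across the 7 libraries the family sum varied 8.76-fold from VSG 5 to SPF 3. Within the VSG group alone it went from 4200 to 15410.5 CPM. Leaving out VSG 3 moved the log2 ratio of the family sum in the 7 from -1.61 to -2.06, and leaving out SPF 3 moved it to -1.29. Over the 10 libraries the values were -1.15 without SPF 4 and -0.45 without SPF 3.

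Other genes of Paneth cells, none of them in the module, were less uniform. Of 27 such genes tested in the 7 libraries, 21 had a fold change below 0 (56.8% of all genes did) with a median of -0.45. An unadjusted p under 0.05 was seen for 6 that were lower in VSG, where 3.26% of all genes were, and for 1 that was higher, where 3.7% were; none passed edgeR's test. In the 10 libraries 17 of 27 were below 0 (58.1% of all genes), with a median of -0.11. The summed level of the 27 overlapped between the groups, at 1213 to 1810 CPM in VSG and 1525 to 2024 CPM in SPF among the 7. A few genes weighed heavily in it, and Agr2 is also on the goblet cell list. In VSG, Agr2, Xbp1 and Fzd5 had means of 337, 274 and 207 CPM in a mean sum of 1460 CPM. In SPF they had 442, 232 and 165 CPM in a mean sum of 1782 CPM.

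The secreted lipase gene Pnliprp2 was at 26.2, 71.7, 33.4 and 26.6 CPM in VSG 1, 3, 4 and 5 and at 99.7, 118 and 207 CPM in SPF 1, 3 and 5. Its cofactor colipase, Clps, was at 26.2, 45.3, 22.2 and 13.8 CPM in those VSG libraries and 60.7, 117 and 86.0 CPM in those sham libraries. Both had no overlap, with log2 fold changes of -1.85 and -1.72 (edgeR, adjusted p = 0.603 for each). These were -1.13 and -0.85 over the 10 libraries, with overlap. Both genes are also expressed in the pancreas, and 8 pancreatic genes such as Pnlip, Cpa1 and Prss2 summed to 0.132 to 0.473 CPM per library.

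Nupr1, a stress-induced nuclear protein, had a log2 fold change of -1.04, Habp2, a secreted protease, -1.20, and the surface protein gene Cd24a -0.48, each without overlap in the 7. Dll4, a Notch ligand that Paneth cells present to stem cells, went the other way, with 19.4 to 25.6 CPM in VSG and 15.2 to 17.3 CPM in SPF and a log2 fold change of 0.49. With the 10 libraries the values were -0.49 for Nupr1, -0.58 for Habp2, -0.22 for Cd24a and 0.56 for Dll4. Of these 4 only Dll4 was without overlap there, with every VSG library above every sham library, as in 41 of 15678 genes tested. The unadjusted p-values of these 4 in the 7 libraries were 0.000812 to 0.0202 in edgeR, and none passed after adjustment (adjusted p = 0.561 to 0.645). Wnt3, the Wnt ligand of Paneth cells, was at 1.16 to 6.96 CPM in VSG and 6.77 to 8.87 CPM in SPF, with a slight overlap and a log2 fold change of -1.13 (edgeR, adjusted p = 0.704), and over the 10 libraries of -0.59.

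Genes of Paneth cell identity and secretion showed smaller values. Sox9, a transcription factor needed for Paneth cells, had a log2 fold change of -0.34 in the 7 libraries, and Atoh1, which drives the secretory lineage, -0.31. Xbp1, a regulator of the secretory machinery, was at 0.24, and Nod2, a sensor of bacterial wall fragments, at -0.55. All 4 overlapped between the groups, with adjusted p-values of 0.743 to 0.812 in edgeR. Over the 10 libraries Sox9 was at -0.30, Atoh1 at 0.000283, Xbp1 at 0.21 and Nod2 at -0.31.

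Mptx1 and Mptx2, pentraxins made by Paneth cells and listed in the files under older symbols, did not follow the defensins in every library. Mptx2 was at 38.01, 121, 147, 18.7 and 21.8 CPM in VSG 1 to 5 and at 43.6, 18.3, 111, 6.38 and 69.3 CPM in SPF 1 to 5. Its highest value was thus in VSG 3. The log2 fold changes in the 7 were -0.41 for Mptx2 and -0.65 for Mptx1 (edgeR, adjusted p = 0.904 and 0.845), with wide intervals, from -1.998 to 1.18 for Mptx2. They were 0.47 and 0.22 over the 10 libraries, on the other side of 0.

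Markers of other cells were set beside the members in the 7 libraries, where 56.8% of all genes were below 0. All 10 proliferation genes, all 10 smooth muscle genes and all 10 genes of B cells and follicles were below 0, with medians of -0.37, -0.34 and -0.65. Of the stem cell genes 9 of 10 were below 0 (median -0.50), of the macrophage genes 8 of 9 (median -0.42, Lyz2 included) and of the goblet cell genes 7 of 10 (median -0.35). Of 10 general enterocyte genes, 7 were above 0 (median 0.31). None of these genes passed edgeR's test. Over the 10 libraries the medians were -0.25 for proliferation, -0.53 for smooth muscle, 0.17 for B cells and follicles, -0.43 for stem cells, -0.16 for macrophages, -0.03 for goblet cells and 0.22 for enterocytes.

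In summed level the macrophage list did not overlap between the groups in the 7 libraries, at 279 to 563 CPM in VSG and 758 to 951 CPM in SPF. Without Lyz2 the macrophage list overlapped, at 148 to 199 CPM in VSG and 180 to 244 CPM in SPF. The sum of upper small intestine genes, Gata4 among them, did not overlap, at 108 to 150 CPM in VSG and 65.8 to 102 CPM in SPF. Much of that sum was Slc40a1, at 57.5 to 98.3 CPM in VSG and 35.8 to 50.0 CPM in SPF. Slc40a1 did not follow Gata4 in these data. It was lower in the libraries with high Gata4, at 7.22 CPM in VSG 2, 3.68 CPM in SPF 2 and 13.6 CPM in SPF 4. Of the 7 genes of this list tested, 4 were below 0 and 3 above (median -0.20). All 5 ileal genes tested were above 0 (median 0.14). The lists that follow overlapped. Stem cell genes ran from 283 to 689 CPM in VSG and 465 to 962 CPM in SPF, and proliferation genes from 301 to 555 CPM and 493 to 573 CPM. Goblet cell genes summed to 15802 to 20335 CPM in VSG and 14864 to 24155 CPM in SPF, and enterocyte genes to 35748 to 42640 CPM and 20662 to 42206 CPM. Smooth muscle genes summed to 1017 to 1871 CPM in VSG and 467 to 4312 CPM in SPF, and genes of B cells and follicles to 18.9 to 217 CPM and 87.1 to 277 CPM. VSG 3, the VSG library with the highest defensin sum of the 7, also had the highest stem cell and proliferation sums of the VSG libraries there, at 689 and 555 CPM. In the sham group it was the reverse, as SPF 3 had the highest defensin sum and the lowest stem cell and proliferation sums, at 465 and 493 CPM. The part of crypt or other cell content, or of position along the gut, in the defensin values was not tested.

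**Figure D5:**
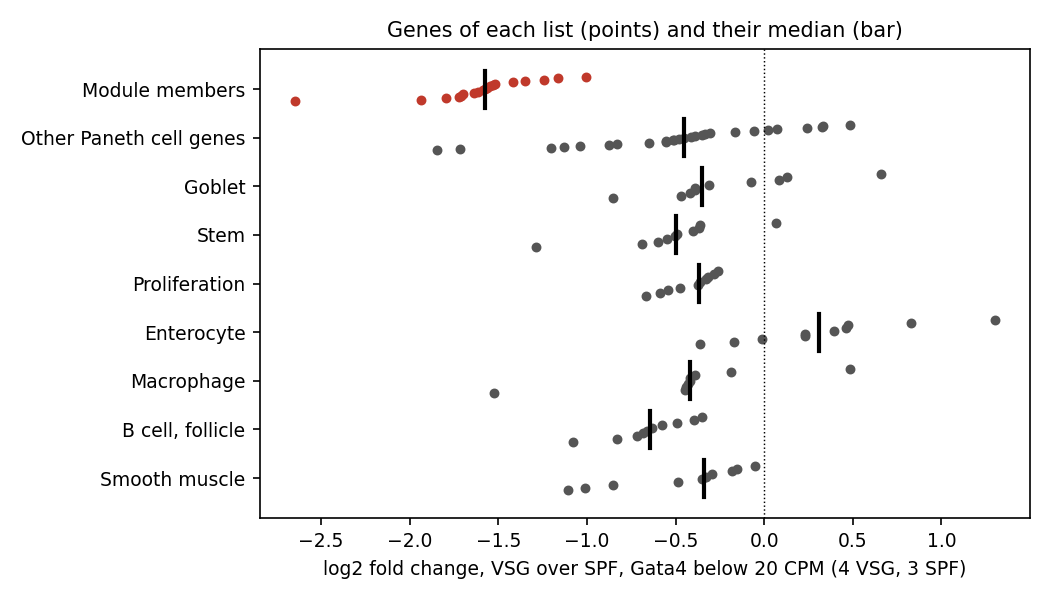
Fitted log2 fold change of VSG over SPF (horizontal axis) in the 7 libraries with Gata4 below 20 CPM for the 19 tested members (red) and for the genes of 8 cell type lists (grey); each point is a gene and each bar the median of its row. The members lie between -2.65 (Defa-ps4, which passed the filter through its sham counts) and -1.01, with a median of -1.58. The 18 members also tested in the 10 libraries lie between -1.94 and -1.01, with a median of -1.57. The medians of the other lists lie between -0.65 and 0.31.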

How the data were processed

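RNA of 10 ileal samples, 5 VSG and 5 SPF, was sequenced as single-end reads of 50 bases with an Illumina TruSeq kit, per the labels' protocols. For each library the authors deposited 1 file of estimated counts (1 value per Ensembl gene) and another of log2 values. Over 14756 genes with at least 5 counts in every library, the deposited log2 values equal the log2 count less a constant per library and gene (largest SD of the offset 3.37e-07), so only the counts were tested. Per the submitters' processing notes, DESeq and the genome build mm9 were used; the aligner and the treatment of reads that match several genes are not given in the sources used here, nor is strandedness.

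Counts were rounded and fitted over all genes with edgeR 4.0.16 in R 4.3.3: filterByExpr, TMM, the quasi-likelihood test with surgery as the only term, Benjamini-Hochberg adjustment, threshold 0.05. The same fit was made in the libraries with Gata4 below 20 CPM. CPM use the TMM factors of the 10 libraries, and log2 CPM a prior count of 2. Intervals are at the 95% level. The procedure was tested on simulated data. DESeq2 1.42.0 and limma 3.58.1 were alternatives, with other scalings and filters, a replicate block, Gata4 as a covariate and each library left out. Sums over genes carry no test. The values of 1 member are not reported here singly; sums and counts include it.

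The members, the lists and the rule for named genes were chosen with earlier results of these data known; the pancreatic genes were added last. The rule gives values per library for the 6 most abundant defensins, the effectors, the 3 next members by p, and Paneth cell genes with p under 0.05 or named beforehand. Lists were matched by symbol, and 5 genes by Ensembl ID because the files use older symbols. Sequences are of GRCm38, not mm9, and serve to show letters only; transcripts were matched to 20 members by ID and 8 by symbol, and 12 of the 24 defensins had a coding sequence. Nothing says that the samples of a group came from separate mice beyond their separate labels, so p-values measure the spread between these samples.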

Additional observations from a re-analysis of the deposited data

How the results depend on the processing

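The count of genes called over the 10 libraries was 0 under the main test and every alternative but DESeq2, which called 11. In the 7 libraries with Gata4 below 20 CPM it was 0, but 83 with DESeq2, 4 with no filter on low counts, 2 with limma-voom and 0 to 2 when 1 library was left out (2 without VSG 4). All tested members stayed below 0 under every alternative except limma-voom over the 10 libraries, where the log2 fold changes of Defa21, Defa22 and Defa20 turned to 0.0254, 0.0463 and 0.0596 (adjusted p = 0.999 for each); the cause was not tested. In the 7, scaling by library totals moved the median of all genes from -0.05 to -0.15. That of the 19 members, Defa-ps4 included, moved from -1.58 to -1.64. The labels number the replicates alike in both groups, but same-numbered samples did not deviate together (correlations -0.32 to 0.28). These correlations cannot show whether same-numbered mice were pair-fed to each other. The deviations run over all genes and also hold the Gata4 signature of VSG 2, SPF 2 and SPF 4. The fit with a replicate block over the 10 libraries called 0 genes and left 18 of 18 members below 0. Leaving out 1 library, the log2 ratio of the defensin family sum ran from -1.15 to -0.45 in the 10 and from -2.06 to -1.29 in the 7, and that of the whole module from -1.11 to -0.47 and from -2.09 to -1.34. The 12 alpha-defensins under other symbols and the alternatives in the 7 libraries for the sums and single members were added after the data were seen.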
